A study of Mus musculus with 24 samples.

Results

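Homologous recombination repairs a broken chromosome by copying an intact sister. MRE11, RAD50 and NBN bind the break, the ATM kinase and the ubiquitin ligases RNF8 and RNF168 mark the chromatin around it, and BRCA1, PALB2 and BRCA2 prepare the resected end for the search for its matching sequence. The Fanconi anaemia proteins repair crosslinks between the DNA strands and hand the break that results to the same machinery. These pathways are known to work chiefly while DNA is being copied. DNA-PK serves the other main route, non-homologous end joining, which thymocytes need to join T cell receptor gene segments.

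The transcripts of 32 mouse genes of these pathways were described in double-negative thymocytes that lacked DNA-PK activity. The genes were listed by function, with earlier results of these data known. 30 of the 32 genes had a probe set on the arrays and are described here, and *Xrcc2* and *Rbbp8* were not analysed here. Each gene was measured by the probe set with the highest mean signal over all 24 arrays, and all 30 of these passed the filter that kept 27022 of 45037 probe sets. The order of the genes by role was break sensing and chromatin signalling (10 genes), end resection (1 of 2), the BRCA1-BRCA2 mediators (5), the group of *Xrcc3*, *Rad51c*, *Rad51d* and *Rad52* (4 of 5), the RAD54 group with *Blm* (3), the Fanconi core (5) and *Fancd2* with *Fanci* (2).

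Mice of genotype *IgHμ-TLX1Tg Prkdc Scid/Scid* (TLX1) were set against *Prkdc Scid/Scid* mice (control), so every animal was homozygous for the inactivating *Scid* allele of the gene that encodes the catalytic subunit of DNA-PK. The labels give outbred ICR animals of 6 to 8 weeks for both genotypes, where the study's methods describe a cross of a TLX1 line on a CD1 background with a CB17 ICR line, and ages that begin younger. TLX1 is a homeobox transcription factor of T cell leukaemia, and here the human gene was driven by the *IgHμ* promoter, which acts mainly in B cells and is only weakly active in thymocytes. There were 4 TLX1 and 4 control pools, each of thymi from 2 to 5 mice of 1 sex (TLX1 pools 1 and 4 and control pools 2 and 4 female, the others male), and each pool was sorted into DN1 (CD44+CD25-), DN2 (CD44+CD25+) and DN3 (CD44-CD25+) thymocytes and gave 1 Affymetrix array per stage. Control pool 3 and TLX1 pool 2 were sorts with many cells outside the gates, as the study describes them, and results are given with and without both. Values are MAS5 signals, a brightness scaled alike on each array. Signals of different genes were not compared, since probe sets differ in how strongly they bind.

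Median array signal ran over 15.1 to 24.3. *Cd44* was at 1268 to 1913 in TLX1 DN1 pools and 892 to 1805 in control DN1 pools, against 85.3 to 119 in TLX1 and 80.3 to 153 in control pools at DN2. The CD25 gene *Il2ra* was at 523 to 1171 in TLX1 and 488 to 786 in control pools at DN1, and at 4270 to 5187 and 4688 to 5518 at DN2. DN1 fractions also held transcripts of other cells. The 7 measured natural killer markers summed to 17910 to 28153 in TLX1 and 13673 to 33254 in control pools at DN1 and to 4668 to 5387 and 4330 to 5756 at DN2, and all 7 were lower at DN2, with *Ncr1*, which defines these cells, at 9.61 to 12.2 in TLX1 and 7.28 to 16.4 in control DN2 pools. The 10 myeloid markers tested were all lower at DN2 as well. With 1 more that did not pass the filter, the 11 measured summed to 4642 to 41179 in TLX1 and 16848 to 19945 in control pools at DN1. At DN2 they summed to 1056 to 1662 in TLX1 and 1032 to 1198 in control pools. Their part in the stage differences below was not tested, and in sorted bulk samples fewer cells of a type and less RNA per cell cannot be told apart.

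As a group, the recombination and Fanconi genes had their lowest signals at DN1 and their highest at DN2. From DN1 to DN2, 26 of the 30 genes rose and none fell, with a median log2 fold change of 0.60. Among all kept probe sets, 28.5% rose and 31.2% fell, with a median of -0.06, and among the brightest probe set of each gene 35.2% rose. The largest changes were those of *Exo1* (log2 fold change 1.92 ± 0.31 SE), *Brca2* (1.67 ± 0.14), *Rad54b* (1.61 ± 0.24), *Fancc* (1.46 ± 0.26) and *Xrcc3* (1.45 ± 0.19). For *Fancc* this rests on the brightest of 3 probe sets (mean signal 43.2), since the others (35.0 and 28.7) gave 0.11 each and did not pass the test. 17 genes were higher at DN2 in all 8 pools, as were 17.1% of kept probe sets. Only *Atr*, *Bard1*, *Mdc1* and *Rad51d* did not pass the test, which was limma with the pool as a block and Benjamini-Hochberg adjustment over the 27022 probe sets, at an adjusted p under 0.05. Without control pool 3 and TLX1 pool 2, 26 genes rose and the median was 0.85.

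**Figure D1:**
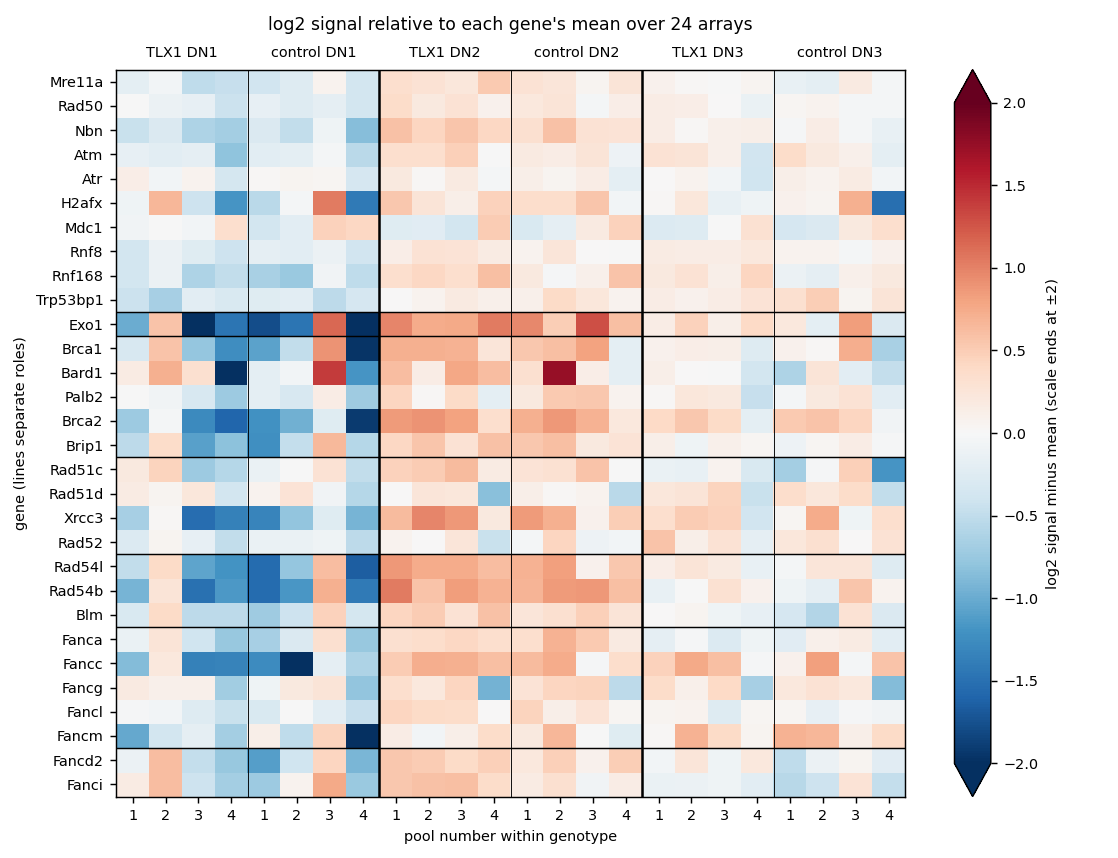
Signal of the 30 genes on the 24 arrays, as log2 signal minus the mean of that gene over all arrays, with stages from left to right, TLX1 pools before control pools at each stage, and black lines between the roles. DN2 columns are mostly above and DN1 columns mostly below the mean, except that TLX1 pool 2 and control pool 3 are high at DN1.

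Of the 10 break sensing and chromatin signalling genes, 8 rose from DN1 to DN2, by 0.40 to 0.90 on the log2 scale. *Nbn*, whose product holds ATM at breaks, had signals at DN1 of 207, 231, 183 and 177 in TLX1 pools 1 to 4 and of 230.2, 201, 265 and 157 in control pools. Its signals were 424, 383, 415 and 376 in TLX1 and 351, 426, 344 and 343 in control DN2 pools, and 312, 288, 303 and 305 in TLX1 and 279, 313, 274 and 254 in control DN3 pools. No DN1 pool reached the lowest DN2 pool, and the log2 fold change was 0.90 ± 0.09 (adjusted p = 6.9e-07). *Rnf168*, a ligase that ubiquitinates histone H2A next to breaks, rose by 0.76 ± 0.09 (adjusted p = 4.8e-06).

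*Atm*, the kinase that answers double-strand breaks, was at 531, 513, 528 and 341 in TLX1 and 517, 522, 578 and 412 in control pools at DN1. It was at 749, 749, 832 and 589.7 in TLX1 and 674, 663, 712 and 553 in control pools at DN2, and at 732, 712, 638 and 455 in TLX1 and 766, 686, 641 and 519 in control pools at DN3. Pool 4 was the lowest of its genotype at every stage, and within each of the 8 pools *Atm* was higher at DN2 than at DN1 (0.49 ± 0.06, adjusted p = 1.2e-05). *Trp53bp1*, which encodes 53BP1, a protein that shields ends from resection, followed another course. Its signals at DN1 were 1037, 877, 1203 and 1126 in TLX1 and 1178, 1208, 967 and 1102 in control pools. They were 1406, 1466, 1570.3 and 1502 in TLX1 and 1500.4, 1808, 1630.4 and 1464 in control DN2 pools, and 1545, 1476, 1540.3 and 1686 in TLX1 and 1744, 1961, 1454 and 1658 in control DN3 pools. *Trp53bp1* thus rose by 0.51 ± 0.07 from DN1 to DN2 (adjusted p = 1.2e-05), and its DN3 level did not differ detectably from that at DN2 (0.08 ± 0.07, adjusted p = 0.45). *Mdc1*, the scaffold that binds phosphorylated H2AX, was the one gene of the group with a negative difference (-0.08 ± 0.07, adjusted p = 0.33, but higher at DN2 once array medians were aligned), and it was higher at DN2 in 4 of 8 pools. *H2afx*, which encodes H2AX itself, rose by 0.57 ± 0.21 (adjusted p = 0.031), in 6 of 8 pools, and lost its call in 10 of 20 alternative settings.

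*Exo1* encodes an exonuclease that resects the broken end. Its DN1 signals were 116, 343, 52.6 and 84.1 in TLX1 and 67.8, 84.2, 512 and 44.7 in control pools. They were 456, 388, 391 and 475 in TLX1 and 451, 326, 565 and 351 in control DN2 pools, and 258, 319.9, 251 and 305 in TLX1 and 267, 203, 414 and 189.7 in control DN3 pools. TLX1 pool 2 and control pool 3 stood far above the other DN1 pools, so the pools differed in their DN1 to DN2 step from 0.14 to 2.97 on the log2 scale, all upward (adjusted p = 0.00011).

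Of the 5 mediators, 4 rose from DN1 to DN2. *Brca2*, a tumour suppressor that acts on single-stranded DNA at breaks, was at 175, 283, 120.1 and 96.9 in TLX1 and 125, 149, 244 and 77.1 in control pools at DN1. At DN2 it was at 525, 543, 507 and 365 in TLX1 and 473, 531, 469.5 and 335 in control pools, and at DN3 at 381, 423, 376 and 253 in TLX1 and 415, 433, 391 and 277 in control pools. All DN2 pools were above all DN1 pools, with an adjusted p of 2.0e-07 for the fold change of 1.67 given above. *Brca1*, the ubiquitin ligase that favours resection, was at 284, 528, 208 and 149.8 in TLX1 and 169, 252, 663 and 90.4 in control pools at DN1. It was at 578, 577, 576 and 420.2 in TLX1 and 515, 535, 618 and 307 in control pools at DN2, and at 376, 389, 382 and 295 in TLX1 and 375, 359, 586 and 225 in control pools at DN3. *Brca1* rose by 1.06 ± 0.20 (adjusted p = 0.00031) and was higher at DN2 in 7 of 8 pools, the exception being control pool 3. *Palb2*, which bridges BRCA1 and BRCA2, rose by 0.52 ± 0.08 (adjusted p = 8.3e-05), and *Brip1*, a helicase that binds BRCA1, by 0.89 ± 0.21 (adjusted p = 0.0018). *Bard1*, the partner of BRCA1, was dim and scattered, with a difference of 0.88 ± 0.48 (adjusted p = 0.13).

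**Figure D2:**
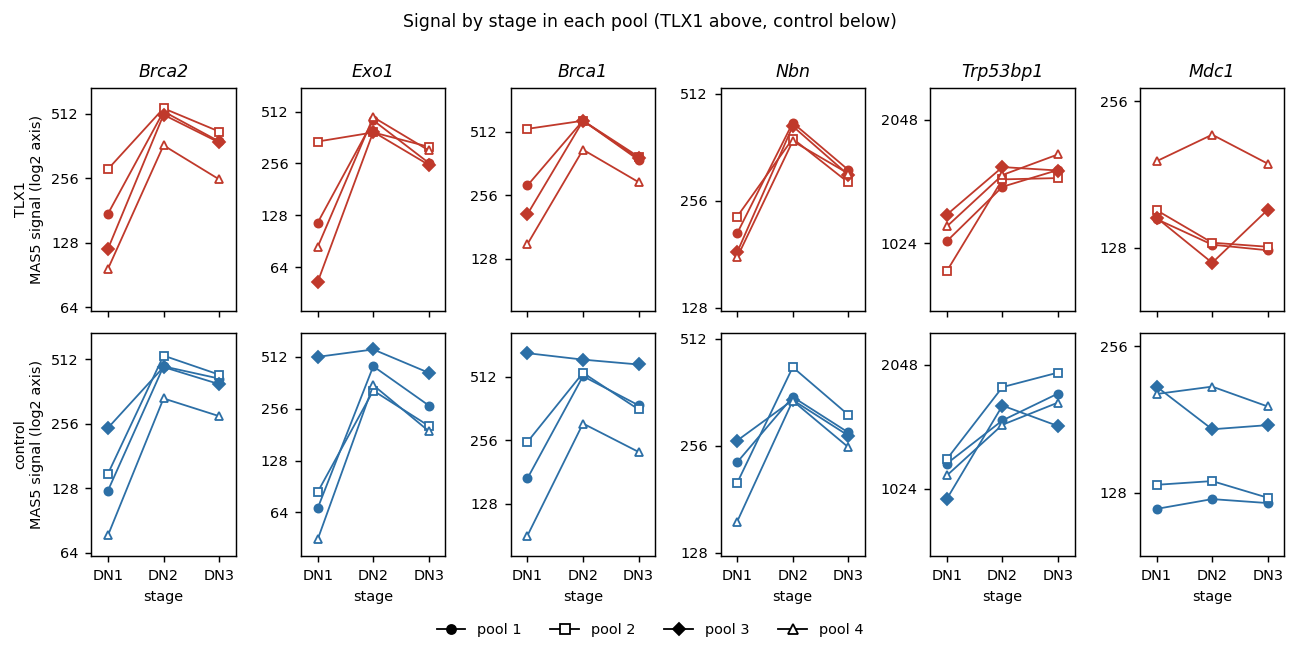
MAS5 signal on a log2 axis at DN1, DN2 and DN3 for 6 of the genes, with 1 line per pool, TLX1 pools in the upper row and control pools in the lower row. Brca2, Exo1, Brca1 and Nbn peak at DN2 in each pool, except Brca1 in control pool 3, Trp53bp1 stays up at DN3, and pool 4 is high for Mdc1 in both genotypes.

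In the next group, *Xrcc3*, which acts in strand exchange, was at 40.4, 65.0, 22.4 and 25.2 in TLX1 and 25.8, 37.2, 54.2 and 33.8 in control pools at DN1. At DN2 it was at 99.5, 126, 117 and 73.3 in TLX1 and 116, 105, 68.0 and 90.5 in control pools, and at DN3 at 81.1, 91.7, 88.6 and 49.4 in TLX1 and 66.3, 107, 60.6 and 81.2 in control pools. The lowest DN2 pool was above the highest DN1 pool (adjusted p = 1.2e-05). *Rad51c*, which encodes the partner of XRCC3, rose by 0.48 ± 0.15 (adjusted p = 0.013). *Rad52*, which anneals complementary strands, rose by 0.23 ± 0.10 (adjusted p = 0.048), a call lost in 11 of 20 settings. *Rad51d*, whose product works in another complex of the pathway, had a difference of -0.06 ± 0.07 (adjusted p = 0.51), which likewise turned to higher at DN2 with array medians aligned.

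*Rad54b* and *Rad54l* encode motor proteins that help open the matching duplex, and *Blm* encodes the helicase that takes recombination intermediates apart. All 3 rose. *Rad54b* was at 29.4, 66.9, 19.9 and 25.3 in TLX1 and 19.3, 25.0, 91.9 and 21.1 in control pools at DN1. It was at 115, 83.1, 100.4 and 90.8 in TLX1 and 89.4, 102, 103 and 85.2 in control pools at DN2, and at 50.8, 55.5, 69.0 and 59.6 in TLX1 and 52.7, 49.3, 82.8 and 59.0 in control pools at DN3. Outside TLX1 pool 2 and control pool 3 its DN1 values were at most 29.4, and control pool 3 alone reached the DN2 range. *Rad54l* rose by 1.35 ± 0.25 (adjusted p = 0.00034). *Blm* was at 234, 377, 203 and 202 in TLX1 and 177, 219, 402 and 227 in control pools at DN1, at 390.2, 412, 355 and 437 in TLX1 and 343, 362, 407 and 349 in control pools at DN2, and at 293, 303, 276 and 259 in TLX1 and 229, 194, 357 and 238 in control pools at DN3. It was higher at DN2 than at DN1 and DN3 in every pool, although by little in control pool 3.

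All 5 Fanconi core genes rose from DN1 to DN2, though the call was lost in 14 of 20 alternative settings for *Fancg* and in 6 of 20 for *Fancm*. Each rise rests on 1 probe set. *Fanca* and *Fancl* had only 1 that passed the filter, and the dimmer ones of *Fancc*, *Fancg* and *Fancm* were not called. The core complex is the ligase that ubiquitinates FANCD2 and FANCI. *Fanca* was at 103, 137, 86.5 and 67.4 in TLX1 and 72.2, 92.7, 142 and 67.3 in control pools at DN1, at 142, 145, 151 and 144 in TLX1 and 145, 184, 163 and 128 in control pools at DN2, and at 101, 112, 94.7 and 107 in TLX1 and 97.5, 123, 128 and 98.4 in control pools at DN3. Its DN2 values were above its DN3 values in each pool (DN2 over DN1 0.70 ± 0.12, adjusted p = 0.00012). *Fancl*, the catalytic subunit, rose by 0.48 ± 0.08 (adjusted p = 0.00016), and *Fancg* rose least, by 0.17 ± 0.07 (adjusted p = 0.044). *Fancd2* was at 51.9, 85.6, 40.2 and 33.3 in TLX1 and 26.2, 42.6, 75.6 and 29.8 in control pools at DN1. It was at 81.8, 80.1, 73.3 and 78.2 in TLX1 and 64.9, 78.2, 59.8 and 78.6 in control pools at DN2, and at 54.1, 66.4, 52.7 and 64.6 in TLX1 and 39.5, 51.4, 58.3 and 48.1 in control pools at DN3. *Fancd2* rose by 0.74 ± 0.18 (adjusted p = 0.0022) and its partner *Fanci* by 0.45 ± 0.18 (adjusted p = 0.041), each in 6 of 8 pools, all but TLX1 pool 2 and control pool 3. The call of *Fanci* was lost in 9 of 19 settings.

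Promoter sequence was looked at because these genes moved together from DN1 to DN2. RefSeq windows (GRCm38.p6, from 250 bases before to 50 after the start of transcription) were matched for 23 of the 30 genes, in 25 windows. The E2F words TTTCCCGC, TTTCGCGC, TTTGCCGC and TTTGGCGC, searched on both strands, lay in 6 of the 25 windows (24%), of *Bard1*, *Brca2*, *Fancg*, *Mdc1* and *Rad51c*, and in 2.26% of all 32851 windows. The CCAAT box (CCAAT) lay in 14 of 25 windows (56%) and in 37.4% of all, and the cell cycle word TTTGAA in 2 windows (8%), of *Bard1* and *Rnf8*, and in 17.9% of all. In the *Rnf8* window its word and a CCAAT box overlapped by 1 base. The stretches below are shown because 3 of them hold an E2F word and 4 hold CCAAT boxes (1 of them, *Mdc1*, holds both), beside very unequal steps from DN1 to DN2. Each is read 5′ to 3′ on the strand of its gene, with the E2F words and CCAAT boxes of either strand in capitals.
Brca2, chr5:150522421-150522520, + strand, 200 to 101 bases before the start: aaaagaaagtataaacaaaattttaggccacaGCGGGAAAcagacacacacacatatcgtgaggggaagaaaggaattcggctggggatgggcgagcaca
Fancg, chr4:43010302-43010401, - strand, 100 to 1 bases before the start: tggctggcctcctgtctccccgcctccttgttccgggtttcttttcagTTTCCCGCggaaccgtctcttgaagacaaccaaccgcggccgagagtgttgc
Mdc1, chr17:35841398-35841497, + strand, 100 to 1 bases before the start: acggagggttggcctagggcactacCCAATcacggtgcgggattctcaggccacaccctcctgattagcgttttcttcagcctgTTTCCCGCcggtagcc
Xrcc3, chr12:111813880-111814129, - strand, 250 to 1 bases before the start: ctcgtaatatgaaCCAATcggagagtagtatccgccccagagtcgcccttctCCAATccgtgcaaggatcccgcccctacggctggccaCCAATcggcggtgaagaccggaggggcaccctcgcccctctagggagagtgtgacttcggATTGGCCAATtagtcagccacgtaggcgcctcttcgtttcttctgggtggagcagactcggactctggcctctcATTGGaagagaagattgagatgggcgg
Brip1, chr11:86201194-86201293, - strand, 100 to 1 bases before the start: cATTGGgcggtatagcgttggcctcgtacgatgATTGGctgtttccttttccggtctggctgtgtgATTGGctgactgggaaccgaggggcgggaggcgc
Brca1, chr11:101551956-101552055, - strand, 100 to 1 bases before the start: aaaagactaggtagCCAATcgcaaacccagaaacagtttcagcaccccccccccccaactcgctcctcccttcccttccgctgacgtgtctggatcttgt
An E2F word was thus present before *Brca2* (log2 fold change 1.67), *Fancg* (0.17) and *Mdc1* (-0.08) alike. *Xrcc3* (1.45) held 6 CCAAT boxes, *Brip1* (0.89) 3, and *Brca1* (1.06) and *Mdc1* 1 each. A match is a description of these letters and not of a bound site.

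From DN2 to DN3 the direction turned. 26 of the 30 genes had a negative difference, with a median of -0.32 against 0.08 over all kept probe sets (-0.48 against -0.08 with array medians aligned), but only 5 fell by the adjusted test, and none rose (4.07% of kept probe sets fell and 6.93% rose, a balance that turned to more falls than rises with quantile normalization or aligned medians). The 5 were *Blm* (-0.53 ± 0.12, adjusted p = 0.011), *Nbn* (-0.39 ± 0.09, 0.012), *Fanca* (-0.48 ± 0.12, 0.018), *Rad51c* (-0.60 ± 0.15, 0.023) and *Fancl* (-0.29 ± 0.08, 0.035). *Rad51c* was at 72.5, 74.4, 81.4 and 58.6 in TLX1 and 63.6, 64.6, 77.6 and 52.1 in control pools at DN2, against 48.0, 47.7, 55.5 and 42.8 in TLX1 and 32.9, 51.5, 73.0 and 23.3 in control pools at DN3. It was lower at DN3 in every pool. 11 genes were lower in all 8 pools, as were 6.75% of kept probe sets. The number of genes that fell hung on single pools. It was 12 without control pool 3, 2 without control pool 1, 2 without TLX1 pool 1, and 15 without both control pool 3 and TLX1 pool 2.

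4 genes had a positive difference, *Fancm* (0.23), *Rad51d* (0.20), *Rad52* (0.19) and *Trp53bp1* (0.08), and none of these was called. *Rad51d* was the one with the same sign in every pool. Its signals were 136, 158, 157 and 75.4 in TLX1 and 146, 136, 141 and 92.0 in control pools at DN2, and 158, 160.1, 182 and 98.7 in TLX1 and 171, 157, 172 and 95.0 in control pools at DN3. It was higher at DN3 in all 8 pools, by 0.20 ± 0.07, and did not pass the test (adjusted p = 0.095). Of its 3 dimmer probe sets, 2 did, with 0.47 (adjusted p = 0.021) and 0.81 (adjusted p = 0.028).

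Set directly against DN1, DN3 thymocytes had 17 genes higher and none lower (median 0.33), beside 30.1% and 25% of kept probe sets. Those with the largest differences were *Fancc* (1.34 ± 0.26), which encodes a core subunit, *Brca2* (1.32 ± 0.14), *Exo1* (1.27 ± 0.31) and *Xrcc3* (1.10 ± 0.19). *Fancd2* (0.28 ± 0.18, adjusted p = 0.20), *Fanci* (-0.09 ± 0.18, adjusted p = 0.70), *Fanca* (0.21 ± 0.12, adjusted p = 0.13) and *Blm* (0.11 ± 0.12, adjusted p = 0.44) did not pass the test.

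**Figure D3:**
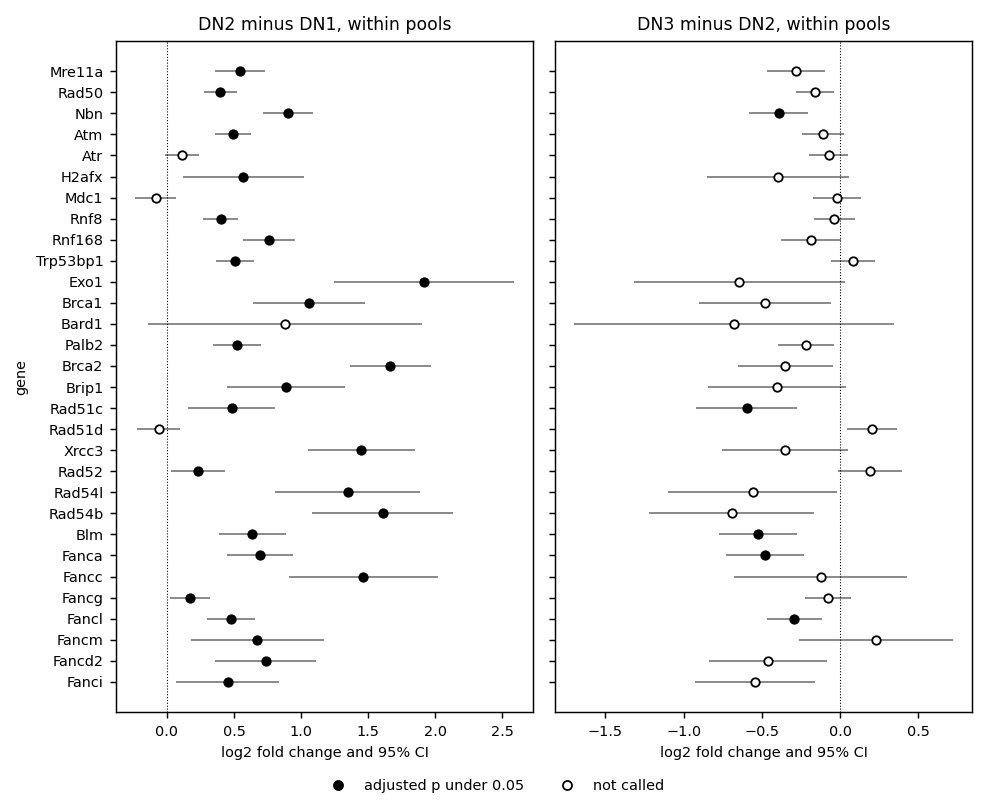
Log2 fold change of each of the 30 genes within pools, with its 95% confidence interval, DN2 minus DN1 on the left and DN3 minus DN2 on the right, filled where the adjusted p is under 0.05. On the left 26 points are filled and to the right of 0, and on the right 5 are filled and to the left of 0; the axes differ in range.

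The same pools were high or low for most genes at DN1. TLX1 pool 2 was the highest TLX1 pool for 20 of 30 genes and control pool 3 the highest control pool for 25 of 30, and pool 4 was the lowest for 19 of 30 in TLX1 and 20 of 30 in control. The median log2 signal over the genes at DN1 was 7.22, 7.72, 7.06 and 6.65 in TLX1 pools and 6.93, 7.14, 7.87 and 6.49 in control pools, against 8.02 to 8.30 in TLX1 and 7.96 to 8.27 in control pools at DN2. The median SD of a gene between TLX1 pools was 0.42 at DN1 and between control pools 0.46, where DN2 gave 0.16 in TLX1 and 0.24 in control and DN3 gave 0.17 in TLX1 and 0.26 in control. Each pool's own step to DN2 varied in turn. Its median over the genes was 0.52, 0.18, 0.77 and 1.07 in TLX1 pools and 0.70, 0.72, 0.14 and 0.86 in control pools. The 2 small steps were those of the pools with many cells outside the gates, and of the DN1 pools of each genotype these also had the lowest sums of natural killer markers.

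At DN1, proliferation genes moved with the recombination genes, pool by pool. The median log2 signal of 29 genes of the cell cycle and DNA replication was 9.54, 10.4, 9.18 and 8.66 in TLX1 and 8.80, 9.62, 10.6 and 8.29 in control pools at DN1, in the same order of pools as the medians of the recombination genes within each genotype. The orders differed at DN2. There TLX1 pool 4 had the lowest median of its genotype for the recombination genes (8.02) and the highest for the proliferation genes (10.6). Control pool 2 had the highest for the recombination genes (8.27) and the lowest for the proliferation genes (10.1). Of the 29, 28 rose from DN1 to DN2 (median 0.95) and 3 fell from DN2 to DN3 (median -0.51). Over the 24 arrays, which share 8 pools and 3 stages, each gene was correlated with the median log2 signal of the proliferation genes, *Pcna* left out. Pearson's r was 0.95 for *Brca1*, 0.92 for *Exo1*, 0.91 for *Rad54l*, 0.91 for *Fancd2* and 0.90 for *Fanca*, and the median r of the 30 genes was 0.71. It was over 0.8 for 12 genes and under 0.5 for 6, namely *Atr* (0.48), *Fancg* (0.41), *Rad52* (0.31), *Trp53bp1* (0.18), *Rad51d* (0.17) and *Mdc1* (-0.03). Once stage means were taken out, r remained at 0.93 for *Brca1* and was -0.63 for *Trp53bp1*. The part of cell division in the stage differences was not tested.

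**Figure D4:**
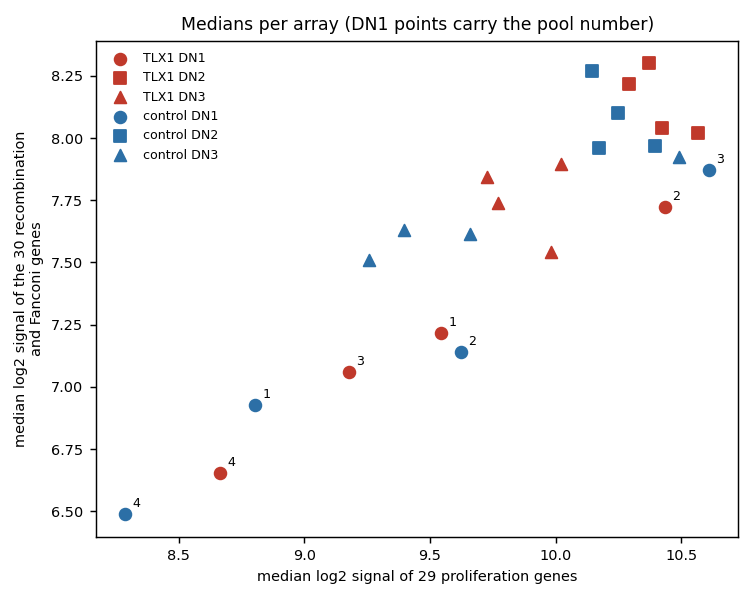
Median log2 signal of the 30 recombination and Fanconi genes (vertical) against that of 29 proliferation genes (horizontal), 1 point per array, with colour for genotype, shape for stage and the pool number beside DN1 points. DN1 pools spread from control pool 4 (8.29 and 6.49), the lowest on both axes, to control pool 3 (10.6 and 7.87), and DN2 arrays lie together at the top.

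TLX1 pools were set against control pools stage by stage to ask whether the transgene moved these genes in cells without DNA-PK. No gene passed the adjusted test at DN1, DN2 or DN3, in limma fits of 4 TLX1 against 4 control pools, where 0.0037%, 0.0037% and 0.0185% of kept probe sets were higher in TLX1 pools and 0% lower. At an unadjusted p under 0.05 there were 0, 1 and 0 genes, beside 1.72%, 3.53% and 6.02% of kept probe sets. The median log2 fold change of the 30 genes, TLX1 over control, was 0.01, 0.08 and 0.03 in the order of the stages. The 1 gene was *Fanci* at DN2, at 149, 154, 156 and 132 in TLX1 pools, against 114, 129, 97.9 and 113 in control pools. All 4 TLX1 pools were above all 4 control pools, a fold change of 1.30 (log2 0.38, 95% confidence interval 0.07 to 0.69, unadjusted p = 0.021 in limma, adjusted p = 1.0). At DN1 the *Fanci* signals were 115, 157, 77.1 and 63.9 in TLX1 and 61.7, 107, 174 and 61.3 in control pools, and at DN3 93.4, 95.1, 96.9 and 88.8 in TLX1 and 70.2, 77.1, 124 and 74.0 in control pools, with overlap at both stages.

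*Fancd2*, whose signals stand above, was among the 3 genes with the smallest p at each stage, at 0.31 (interval -0.61 to 1.23), 0.16 (-0.15 to 0.48) and 0.27 (-0.10 to 0.65) at DN1, DN2 and DN3. These values are those of its brightest probe set. Of its 3 kept probe sets, 1 went the other way at each stage, at -0.39, -0.22 and -0.20. *Rnf168* was at 560.2, 589, 557 and 675 in TLX1 and 509.9, 437, 475 and 655 in control pools at DN2 (0.21, interval -0.16 to 0.58). At DN3 it was at 506, 544, 482 and 594 in TLX1 and 408, 393, 477 and 508 in control pools (0.25, interval -0.07 to 0.58, adjusted p = 0.91). The *Rnf168* ranges overlapped at both stages. At DN1 it was at 342, 408, 289 and 316 in TLX1 and 284, 266, 423 and 311 in control pools.

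*Atm* had a difference of -0.10 at DN1 (interval -0.57 to 0.38). *Bard1* had one of -0.71 (interval -3.10 to 1.68), from DN1 signals of 18.6, 27.2, 20.8 and 0.86 in TLX1 and 14.6, 16.0, 43.6 and 7.34 in control pools, and without TLX1 pool 4, which lay at the floor of 1, it was 0.41. *Atr*, the kinase that answers stalled replication, was at 374, 393, 358 and 284 in TLX1 and 404, 393, 417 and 362 in control pools at DN3 (-0.17, interval -0.50 to 0.16). *Brca1* differed by 0.22 ± 0.62, 0.16 ± 0.24 and -0.03 ± 0.27 (SE) over the stages in turn. The pools did not overlap for 0 genes at DN1, for *Fanci* alone at DN2 and for 1 gene at DN3, beside 1.25%, 2.75% and 3.89% of kept probe sets. The gene at DN3 was *Rnf8*, at 372, 369, 367 and 387 in TLX1 and 349, 349, 325 and 353 in control pools (0.12, adjusted p = 0.98). The widest intervals were those of DN1, where the median SE of a gene was 0.31, against 0.16 at DN2 and 0.19 at DN3, so a difference that fell short of the test does not show equal levels.

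**Figure D5:**
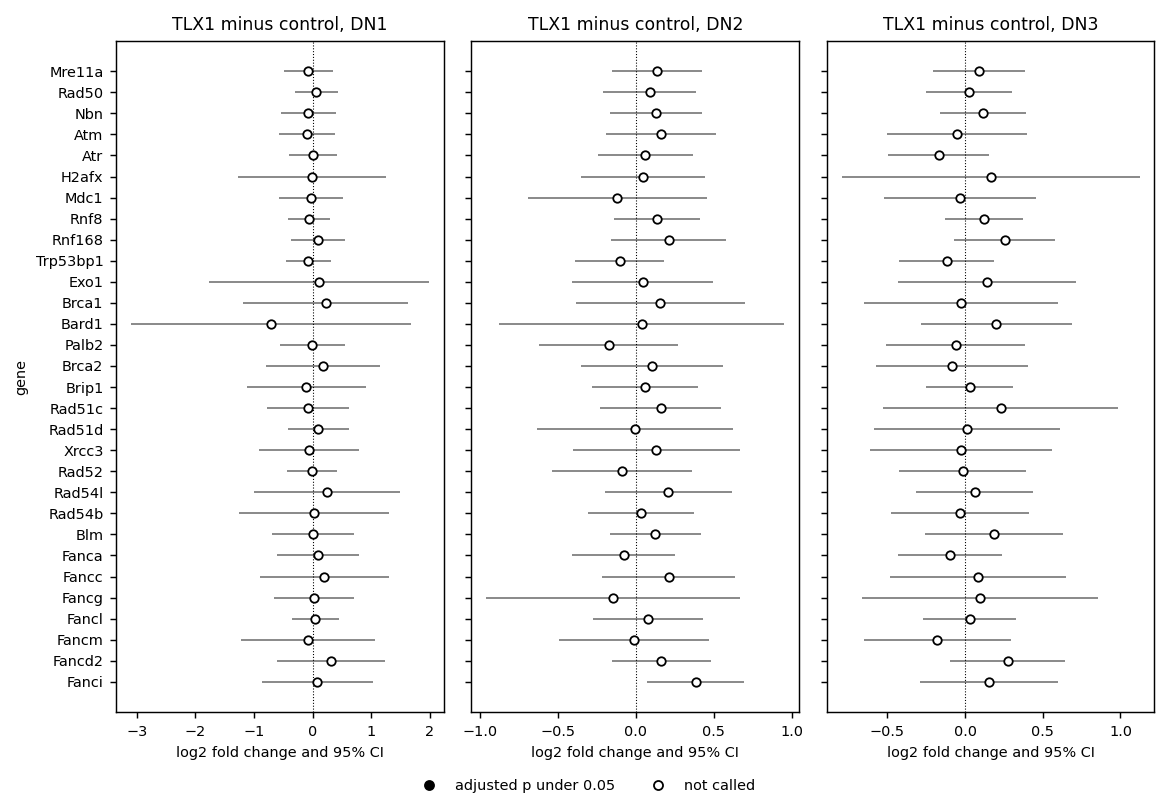
Log2 fold change of TLX1 over control pools for the 30 genes at DN1, DN2 and DN3, with 95% confidence intervals and an x range of its own in each panel. No point is filled, all intervals but that of Fanci at DN2 (0.07 to 0.69) include 0, and those of Bard1, Exo1 and Brca1 at DN1 are wide.

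The stage steps were set against each other between the genotypes too. From DN1 to DN2, 21 genes rose in TLX1 pools and 21 in control pools, where 22.8% and 21.9% of kept probe sets did. *Brca2* stepped up by 1.63 in TLX1 and 1.70 in control pools, and *Nbn* by 1.01 in TLX1 and 0.80 in control pools. The difference between the genotypes in these steps, tested as an interaction, was called for no gene in any of the 3 stage pairs, and for 0% of kept probe sets. The 30 interaction values lay between -0.17 and 0.75 for DN2 minus DN1.

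RNA quality moved with the genotype. An index of 3′ over 5′ signal (log2) from the array's *Actb* and *Gapdh* controls was 0.057 ± 0.075 in TLX1 DN1 pools and 0.26 ± 0.16 in control DN1 pools (SD, n = 4 each). DN2 pools had 0.22 ± 0.11 in TLX1 and 0.52 ± 0.33 in control, and DN3 pools 0.18 ± 0.11 in TLX1 and 0.53 ± 0.030 in control. The exact two-sided permutation p was 0.0857, 0.0571 and 0.0286 for the stages in turn, the last being the smallest that 4 against 4 pools can give. With this index as a covariate no recombination or Fanconi gene was called in TLX1 against control. The medians at the successive stages were -0.43, 0.06 and -0.18. At DN3 the index ran from 0.10 to 0.34 in TLX1 and from 0.50 to 0.57 in control pools, without overlap. Such a fit can hardly tell the genotype from the index, so its lack of calls decides nothing about RNA quality. The mean index was also higher at DN2 than at DN1 in both genotypes. With it as a covariate in the stage comparisons, 25 genes rose from DN1 to DN2 (median 0.79), against 26 without it. From DN2 to DN3, 11 fell, against 5. The causes of these shifts were not tested.

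Several genes have more than 1 probe set. Of the 16 genes with several that passed the filter, 12 had all of theirs on 1 side of 0 from DN1 to DN2. The other 4 were *Atr*, *Brca1*, *Fancd2* and *Mre11a*, and no gene had probe sets called in opposite directions. A shared side was not a shared call. The lowest values of *Fancm*, *Rad52* and *Fancg* were 0.005, 0.009 and 0.03, and *Rad51d* had all 4 probe sets below 0. Of the 16 second-brightest probe sets 7 rose, with a median of 0.30. *Mre11a*, the nuclease of the break sensor, was at 254, 277, 204 and 209 in TLX1 and 223, 241, 305 and 224 in control pools at DN1 and at 365, 354, 339 and 414 in TLX1 and 352, 343, 301 and 344 in control pools at DN2 (0.54 ± 0.09, adjusted p = 8.5e-05). Its second probe set, with a mean signal of 30.7 against 294 for the first, gave -0.07 (adjusted p = 0.73). For *Atr* the brightest probe set had signals of 410.3, 362, 394 and 293 in TLX1 and 380.5, 387, 382 and 297 in control pools at DN1 and of 428, 381, 423 and 365 in TLX1 and 404, 390.2, 414 and 327 in control pools at DN2 (0.11 ± 0.06, adjusted p = 0.11). Its other probe sets gave -0.10 and -0.12. Of the 3 kept probe sets of *Fancd2*, only the brightest passed the test, and 1 gave -0.09.

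*Brca1* had 4 probe sets, with mean signals of 394, 61.7, 39.6 and 16.6. From DN1 to DN2 the first 3 rose, by 1.06, 1.00 and 0.86, and the dimmest gave -0.22 (adjusted p = 0.17). In TLX1 against control they parted. The second gave 0.74 at DN2 (unadjusted p = 0.0015 in limma, adjusted p = 1.0) and 0.60 at DN3 (adjusted p = 0.73), and the third 1.01 at DN2 and 0.78 at DN3 (adjusted p = 0.75), where the brightest gave 0.16 and -0.03 and the dimmest -0.40 and -0.07. No probe set of *Brca1* passed the adjusted test in TLX1 against control. The study itself reports higher *Brca1* in TLX1 than in control DN2 thymocytes by quantitative RT-PCR, a measurement that is not part of these arrays.

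Of 47 other genes of these pathways, 45 were measured. From DN1 to DN2, 32 rose and 3 fell (median 0.62), and from DN2 to DN3, 5 fell and none rose. The smallest p from DN1 to DN2 were those of *Uimc1* (-0.63 ± 0.06), which encodes RAP80, the ubiquitin reader of a BRCA1 complex, of *Zswim7* (0.68 ± 0.08) and of *Mcm8* (1.51 ± 0.19), a helicase subunit. *Mus81* (-0.58 ± 0.14) and *Slx4* (-0.30 ± 0.10), which encode a junction-cutting nuclease and its scaffold, fell as well. From DN2 to DN3 the smallest p were those of *Rpa1* (-0.34 ± 0.07), which coats single-stranded DNA, *Hus1* (-0.25 ± 0.05), of a checkpoint clamp, and *Eme1* (-0.76 ± 0.16), the partner of MUS81. No gene of this list was called in TLX1 against control at any stage.

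End joining genes rose at DN2 as well. Of 15 tested, 13 rose and 1 fell from DN1 to DN2 (median 0.65), among them *Prkdc* itself (0.67 ± 0.07, adjusted p = 7.3e-07), whose mutant transcript is what both genotypes carry, and *Lig3* (0.66 ± 0.06), which encodes a DNA ligase. The gene that fell was *Polm* (-3.30 ± 0.36), a polymerase of end joining. From DN2 to DN3 only *Xrcc4*, the partner of DNA ligase IV, was called (0.30 ± 0.08, adjusted p = 0.035), and it rose. In TLX1 against control none was called. The smallest p was that of *Parp1*, a sensor of strand breaks, in DN3 thymocytes (0.47 ± 0.15, adjusted p = 0.66).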

How the data were processed

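Thymocytes of 8 pools were sorted into 3 stages and hybridised to 24 arrays. The authors deposited linear MAS5 intensity values, for which the submitters' processing notes name Affymetrix Expression Console. Every array has a 2% trimmed mean of 150. Values were floored at 1 (4.37% to 11.3% of an array) before log2 transformation, and the brightest 60% of 45037 probe sets were kept (27022, geometric mean signal of at least 9.02). Stages were compared with limma (version 3.58.1, under R version 4.3.3 with data.table version 1.17.8) on 24 arrays, blocked by pool, genotypes on the 8 arrays of a stage, and their difference between stages as an interaction. P-values were adjusted by Benjamini-Hochberg over all kept probe sets. Within a pool the 3 arrays share their mice, and their deviations from group means correlated with r of 0.18 to 0.63. The code was tested on simulated data.

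The genes and gene lists were chosen with earlier results of these data known. Signals in every pool are given for the 1 or 2 genes of each role with the smallest p between stages, for the 3 with the smallest p between genotypes at each stage, for *Brca1*, *Atm* and genes whose probe sets differ in sign, and other genes are given by counts and range. *Mdc1*, *H2afx*, *Rad51d* and *Rnf8* were singled out with their values in view. No probe set here measures the human transgene. The number of pools limits the precision. Alternatives tried are named with their effect in the closing section.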

Additional observations from a re-analysis of the deposited data

Results flagged for a closer look

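In 21 of 180 groups of 4 pools (30 genes, 2 genotypes, 3 stages), the highest or lowest pool lay so far from the others that its gap exceeded Dixon's 95% critical value. Chance flags about 9 of 180. Of the 21, 14 were values of a pool 4 (9 in TLX1 and 5 in control pools), over 14 genes in all.

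In TLX1 DN1 thymocytes, pool 4 was the lowest for *Atm* (341), *Bard1* (0.858) and *Fancg* (69.3) and the highest for *Mdc1* (193). In TLX1 DN2 thymocytes it was the lowest for *Brca1* (420.2), *Fancg* (58.2) and *Fancl* (466) and again the highest for *Mdc1* (218). In TLX1 DN3 thymocytes pool 4 was the lowest for *Brca1* (295), and pool 3 for *Fancl* (387).

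In control DN1 thymocytes, pool 4 was the lowest for *Atr* (297) and *Rad52* (89.3), and pool 3 the highest for *Rad54b* (91.9). In control DN2 thymocytes, pool 3 was the lowest for *Mre11a* (301), pool 2 the highest for *Nbn* (426) and *Rad52* (173), and pool 4 the lowest for *Rad51d* (92.0). In control DN3 thymocytes, pool 4 was the lowest for *Fancg* (61.1) and *Rad51d* (95.0), and pool 3 the highest for *Fanci* (124) and the lowest for *Rnf8* (325).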

How the results depend on the processing

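The rise from DN1 to DN2 held under 20 settings, with 15 to 30 genes higher and none lower, 17 of the 26 genes called in every setting, and 21 to 26 genes higher (median 0.51 to 0.74) when 1 pool was left out. *Rad52* lost its call in 11 of 20 settings and *H2afx* in 10, and *Fanci* in 9 of 19. The second-brightest probe sets gave as few as 15 of 26 genes, where 10 genes had only 1 probe set, which stood for itself. That setting could therefore not change the calls of those 10. *Fanca*, *Fanci*, *Fancl* and *Rad50*, whose second probe set did not pass the filter, were counted over 19 settings without it. Of the 16 genes with a second one, 7 rose on it, and *Mre11a* turned to -0.074. Median centring moved the median of all kept probe sets by 0.34 from DN1 to DN2, by -0.15 from DN2 to DN3 and by 0.10 for TLX1 at DN2, and quantile normalization moved the first by 0.15. Of kept probe sets, 7702 rose and 8435 fell from DN1 to DN2, which became 9312 and 6545 with quantiles equalised and 12720 and 4478 with medians centred. From DN2 to DN3 the counts were 1873 and 1099, 948 and 1125, and 633 and 2737. With median centring all 30 genes were higher at DN2, *Mdc1* and *Rad51d* included, with a median of 0.95.

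The number of genes that fell from DN2 to DN3 depended on the setting. Against 5 it was 11 with the 3′/5′ covariate, 8 with the stricter 40% filter, 3 with no filter, 12 with median centring, 1 with no replicate block (no pool term), 8 with an offset of 32 before log2, 19 by a paired test per probe set without pooled variances, 3 with the second-brightest probe sets, 15 without control pool 3 and TLX1 pool 2, and 2 to 12 with 1 pool left out (3 without control pool 2, control pool 4 or TLX1 pool 3). *Nbn* was the gene called in every setting, but it has only 1 probe set, which the second-brightest setting could not replace. 1 gene rose with the median of the probe sets of a gene and 1 by the paired test. The median went to -0.48 with median centring and to -0.19 with the second-brightest probe sets, and was -0.35 to -0.27 with 1 pool left out. From DN1 to DN3, 14 to 20 genes were higher with 1 pool left out (median 0.30 to 0.41).

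In TLX1 against control no gene was called under any of 21 settings per stage or 18 per interaction. With 1 pool left out, the median was -0.12 to 0.14 at DN1, 0.01 to 0.14 at DN2 and 0.00 to 0.10 at DN3, and for the interactions -0.16 to 0.23, -0.06 to 0.05 and -0.07 to 0.12 (DN2 minus DN1, DN3 minus DN2, DN3 minus DN1). Median centring gave -0.14 for DN3 minus DN2, and the 3′/5′ covariate -0.43 for TLX1 at DN1 and -0.18 at DN3. At the thresholds of the methods (unadjusted p and a fold of 1.4) 1 gene passed at DN2 with the median of probe sets and 1, *Brca1*, with the second-brightest. At DN3 the numbers were 2 and 3, and as reported none passed at either stage. The methods' t-test, unpaired and per probe set, called 0 genes at each stage after Benjamini-Hochberg adjustment and passed 0, 0 and 0 at those thresholds. At DN1 *Atm* turned to 0.037 with the second-brightest probe set and to 0.058 without TLX1 pool 4, *Fancd2* to -0.33 with the 3′/5′ covariate, and *Bard1* to 0.41 without TLX1 pool 4 (-1.18 to 0.41 with 1 pool left out). The causes were not tested. Pools of equal number in the 2 genotypes were not taken as pairs. Same-numbered pools correlated at -0.34 to 0.48, -0.13 to 0.40 and -0.05 to 0.37 at DN1, DN2 and DN3, 2 of 4 over 0.1 each time, and a replicate block called 0 genes at each stage. The highest of these values was that of pool 4 at every stage. TLX1 pool 4 was also the only TLX1 pool that correlated best with the control pool of its own number. What the pools numbered 4 have in common was not tested.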
